A study of Mus musculus with 2 samples.

Results

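The genes of the cell cycle and of DNA replication were examined in small intestinal TCRαβ+CD8αα+ intraepithelial lymphocytes (IELs), as a set of 49 genes chosen by name, out of 20892 named genes on the array. They were divided by role into 10 genes of the G1/S transition, 15 of DNA replication, 18 of mitosis, and 6 inhibitors of the cycle. RNA was compared on 2 Agilent arrays of 1 color, with 1 array per genotype, so that differences carry neither a test nor an error over mice. The array called Control held RNA of Rbpjf/f mice, in which *Rbpj*, the DNA-binding partner of Notch, is floxed. The array called RFF4 held RNA of CD4-Cre Rbpjf/f mice, in which the floxed gene is a target of Cre driven by *Cd4* regulatory sequences, active in αβ T cells from the thymocyte stage at which CD4 appears. Both groups were C57BL/6 mice of 8–12 wk, with males and females pooled, and each RNA was pooled over several isolations of cells sorted as TCRβ+ CD8α+ CD8β- after depletion of CD4+ and TCRγδ+ cells. The labels give the control as floxed and name no Cre for it, while the study's text describes its control mice as Rbpj+/+ with CD4-Cre. *Rbpj* itself was not lower on the array labelled RFF4, relative to the bulk of genes. Its brightest probe gave a log2 difference of 0.32 and its other probe 0.82, and their position against the floxed exons is not stated, so the genotype was not verified by the array.

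In a dividing cell, D-type cyclins with Cdk4 or Cdk6, and then cyclin E with Cdk2, inactivate the retinoblastoma family and free the E2F factors, which transcribe the genes of replication. The MCM helicase is loaded on origins by Cdc6 and Cdt1, and cyclins A and B with Cdk1 then drive mitosis, until Cdc20 and Ube2c, acting with the anaphase-promoting complex, have cyclin B degraded. Genes of replication and genes of mitosis are transcribed at different times of the cycle, the former mainly through E2F and the latter mainly through elements such as the cell cycle homology region (CHR) and the CCAAT box of NF-Y. Mature IELs of the small intestine are long-lived cells that divide slowly, while the crypt epithelium beneath them divides fast.

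These elements were searched by their letters, on both strands, in RefSeq windows of 300 bases, from 250 before to 50 after the transcription start (build GRCm38.p6), which were found for 39 of the 49 genes. The CHR (TTTGAA or TTCGAA) was in the windows of 12 of 15 mitosis genes (80.0%) and 2 of 12 replication genes (16.7%), against 21.7% of all 27025 genes with a window. The NF-Y box (CCAAT) was in 14 of 15 mitosis genes (93.3%), in 8 of 12 replication genes (66.7%) and in 41.1% of all genes. The E2F site (TTCCCGC or TTGGCGC) was in 7 of 12 replication genes (58.3%) and 3 of 15 mitosis genes (20.0%), against 7.79% of all genes. The core of the RBPJ site (TGGGAA) was in 11 of the 39 genes (28.2%), close to its share of 28.3% over all genes. A match of letters is a description and not a site of binding, and genes with several windows were counted once if any window held the motif. The upstream 250 bases of 4 genes are shown, 3 of mitosis and 1 of replication, because the values of these genes are contrasted below. Each runs 5′ to 3′ on the strand of the gene, with matches of any of the 4 motifs in capitals.
Ccnb1: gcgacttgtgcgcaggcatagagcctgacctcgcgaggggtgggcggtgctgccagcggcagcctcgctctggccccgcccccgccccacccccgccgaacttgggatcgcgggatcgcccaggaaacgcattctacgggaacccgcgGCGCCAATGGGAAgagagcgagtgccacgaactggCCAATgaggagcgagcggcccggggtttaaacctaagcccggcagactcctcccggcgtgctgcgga
Ube2c: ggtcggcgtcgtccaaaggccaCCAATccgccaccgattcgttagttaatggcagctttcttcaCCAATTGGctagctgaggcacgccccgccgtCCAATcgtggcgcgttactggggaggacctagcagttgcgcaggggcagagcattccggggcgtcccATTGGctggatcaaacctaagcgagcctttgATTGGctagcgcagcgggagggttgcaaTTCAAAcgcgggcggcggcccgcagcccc
Ccnb2: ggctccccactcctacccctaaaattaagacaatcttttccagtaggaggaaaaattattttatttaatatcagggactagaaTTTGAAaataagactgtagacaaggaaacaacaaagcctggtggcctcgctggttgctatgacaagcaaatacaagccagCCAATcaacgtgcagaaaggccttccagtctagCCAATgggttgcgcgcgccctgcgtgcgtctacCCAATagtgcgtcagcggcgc
Mcm6: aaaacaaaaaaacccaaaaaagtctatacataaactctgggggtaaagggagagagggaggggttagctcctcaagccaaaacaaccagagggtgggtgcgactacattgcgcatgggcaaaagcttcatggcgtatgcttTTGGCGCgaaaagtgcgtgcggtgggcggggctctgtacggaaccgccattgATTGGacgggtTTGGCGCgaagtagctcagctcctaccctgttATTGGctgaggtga
The *Ccnb1* stretch (chr13:100786487-100786736, minus strand) holds NF-Y boxes that begin 99 and 67 bases before the start. It holds no match to either CHR string searched, and other forms of the CHR were not searched. The first of its NF-Y boxes lies inside a run in which matches of the E2F and RBPJ motifs overlap it. The *Ube2c* stretch (chr2:164769679-164769928, plus strand) holds 6 NF-Y boxes, a pair of which overlap, and a CHR 29 bases before the start. The *Ccnb2* stretch (chr9:70421555-70421804, minus strand) holds 3 NF-Y boxes, at 87, 54 and 21 bases before the start, and a CHR at 167. The *Mcm6* stretch (chr1:128359706-128359955, minus strand) holds 2 E2F sites, at 109 and 46 bases before the start, and 2 NF-Y boxes.

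The level of a gene is given as the log2 of its background-subtracted signal minus the 75th percentile of its array, so that 0 is the 75th percentile, and levels are compared only between arrays and never between genes. Differences are RFF4 minus Control on the log2 scale, and a gene was counted as higher or lower past 2-fold when its difference exceeded 1 in size. On both arrays 47 of the 49 genes were well above background. *Ccne2* and *Aurkb* were so on neither array, by their single probes, and have no difference. No spot of these genes was saturated or an outlier. The control array was brighter, with 57.2% of 59305 gene spots well above background and a median signal 9.47 times background, against 49.7% and 5.78 times on the array labelled RFF4. The scaling therefore matters, as *Mcm6* shows, whose signal was 29336 on the control array and 12998 on the other, yet its scaled levels were 5.85 and 5.84. From probes spotted repeatedly on the same array, the technical SD of a difference was 0.13, with 0.19 for levels below 0 and 0.07 above. It covers spots of the same RNA only and not mice, pools or arrays.

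The genes of mitosis were mostly higher on the array labelled RFF4, those of replication lay on both sides of 0 with a median near it, and few in either role differed past 2-fold. Over all 47 measured genes, 34 were higher and 13 lower, or 72.3% higher against 48.9% of all 13515 genes with a difference. Their median difference was 0.24, against -0.01 over all genes. By role, the median was 0.48 for mitosis, 0.34 for G1/S, 0.14 for replication, and -0.09 for the inhibitors. In all, 5 of 47 (10.6%) were higher past 2-fold, against 12.3% of all genes, and 0 were lower past 2-fold, against 5.05% of all genes, so the share past 2-fold was near the background and is not a result about these genes. They were *Ccnd1*, *E2f2*, *Ube2c*, *Ccnb1* and *Cdkn1a*. Only *Ccnd1* among the 47 was higher past 4-fold, against 1.85% of all genes, and 0 were lower past 4-fold, against 0.585%. With scaling on the array median in place of the 75th percentile, the median of all genes moved by -0.17. The count past 2-fold was then 3 higher and 0 lower of 47, against 9.68% and 7.98% of all genes. With 8 spike-in controls set equal, the median of all genes moved by -1.09. Past 2-fold, 0 of 47 were then higher and 18 lower, against 1.39% and 56.7% of all genes. Only *Ccnd1*, *E2f2* and *Ube2c* stayed above 0. Over all genes, 70.9% of those past 2-fold were higher, 54.8% under median scaling and 2.40% with the spike-in controls. Directions below are therefore relative to the bulk of genes. Relative to the all-gene median 35 of 47 were higher here, 35 under median scaling and 32 with the spike-in controls. These counts are alike by construction and give no separate support. Each scaling subtracts a constant, which the all-gene median removes again, apart from changes in which genes have a bound. Without a filter on dim probes or a bound, the median of all genes moved by 0.27, and 24 of the 49 were above it.

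**Figure D1:**
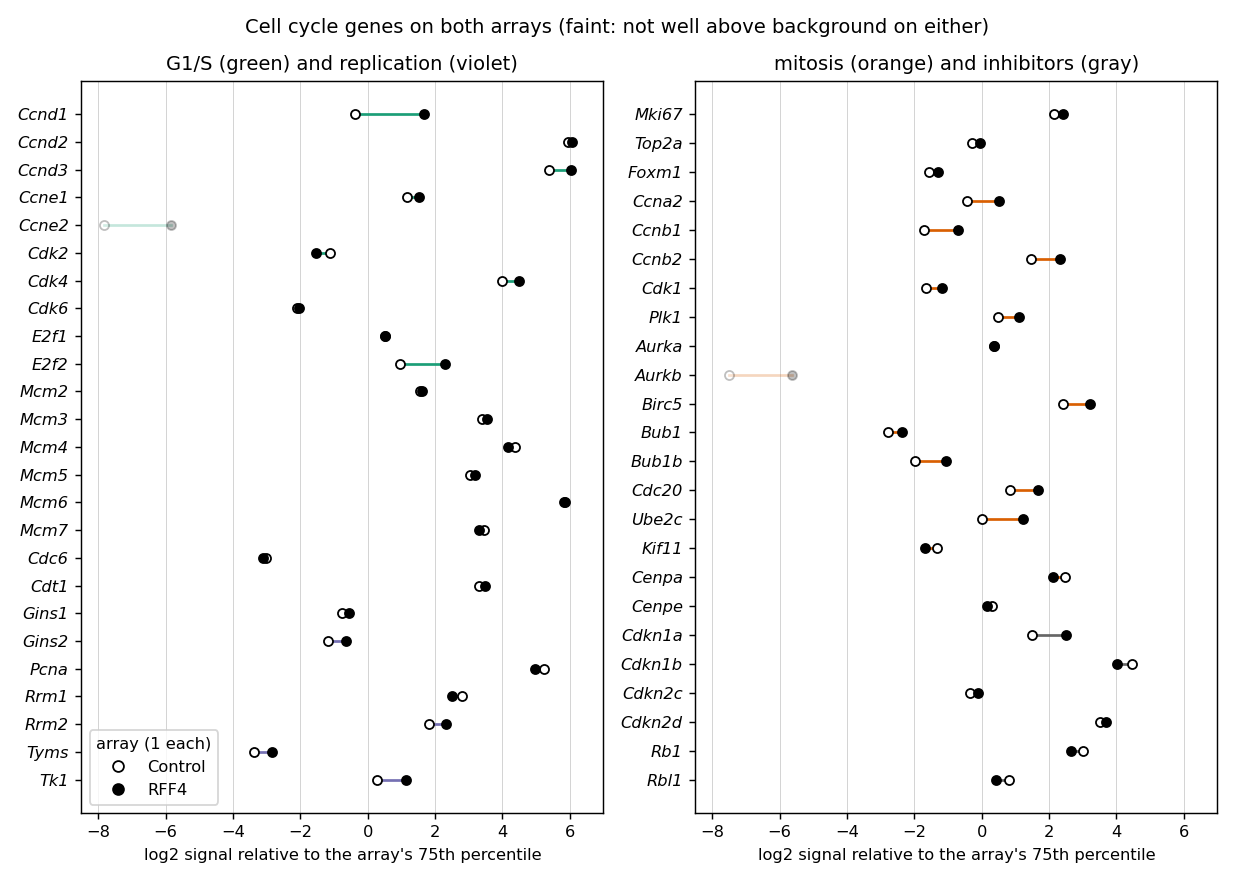
Log2 signal of the 49 genes relative to the 75th percentile of each array (x axis), for Control (open circles) and RFF4 (filled circles), 1 array each, joined by a line in the color of the role. *Ccnd1* has the widest gap of the measured genes, from -0.37 to 1.66, while the circles of *Mcm6* and *E2f1* coincide. Faint symbols are the genes not well above background on either array.

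Among the G1/S genes, *Ccnd1*, which encodes cyclin D1, differed most. Its level was -0.37 on the control array and 1.66 on the array labelled RFF4, a difference of 2.03 or 4.08-fold, above 98.3% of all genes. It rests on 1 probe with 1 spot per array. Its difference was between 1.71 and 2.15 over the alternatives other than the spike-in controls, and 0.91 with these. The other D-type cyclins differed less. *Ccnd3*, the cyclin D3 gene, had levels of 5.38 and 6.05, with differences of 0.67 and 0.80 on its 2 probes. *Ccnd2*, the cyclin D2 gene, had 5.96 and 6.06, a difference of 0.10 that was below 0 under some settings (-0.18 at the lowest). Their partner *Cdk4* was higher by 0.50 on its brightest probe and by 0.74 on another, from 3.999 to 4.50, while *Cdk6* had -2.10 and -2.05, a difference of 0.05 within the technical SD.

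*E2f2*, an E2F activator, had levels of 0.97 and 2.29, a difference of 1.33 or 2.51-fold, above 92.3% of all genes. Its sister activator *E2f1* had 0.52 and 0.53, a difference of 0.01. The arrays thus gave unlike differences for these closely related genes, each on 1 probe with 1 spot per array. *Ccne1*, the cyclin E1 gene, differed by 0.34, from 1.18 to 1.52, and by 0.08 on its other probe. *Cdk2*, the kinase of cyclin E, was the only measured G1/S gene that was lower, from -1.11 to -1.53, a difference of -0.42. Thus 8 of 9 were above 0, of which *Ccnd2*, *Cdk6* and *E2f1* were within the technical SD of 0.13 over all levels, though *Ccnd2*, whose levels were above 0, exceeded the 0.07 that applies there.

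The replication genes stayed within -0.29 to 0.87, with 0 of 15 past 2-fold. The 6 subunits of the MCM helicase, which unwinds DNA at the fork, had differences between -0.22 and 0.15, with a median of 0.02. *Mcm2* was at 1.57 and 1.61, *Mcm3* at 3.38 and 3.53, and *Mcm5* at 3.05 and 3.19, each slightly higher here but below the control under at least 1 alternative. *Mcm4* was at 4.38 and 4.16 and *Mcm7* at 3.44 and 3.32, both lower under every scaling. *Mcm6* differed by -0.0047.

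The helicase loaders differed by little on their brightest probes. *Cdt1* had 3.32 and 3.47, a difference of 0.16. *Cdc6* had -3.02 and -3.12 on its brightest probe, a difference of -0.10, but 0.52 on the dimmer one, the largest disagreement between probes among these genes (a span of 0.62). *Gins1* and *Gins2*, of the GINS complex that joins the helicase at the fork, were higher by 0.20 and 0.53, from -0.75 to -0.55 and from -1.17 to -0.65. *Pcna*, the sliding clamp of the polymerases, was at 5.24 and 4.97, a difference of -0.26. The genes that supply nucleotides differed among themselves. *Tk1*, thymidine kinase, had the highest difference of the replication genes, 0.87, from 0.28 to 1.15. *Tyms*, thymidylate synthase, followed with 0.55, from -3.39 to -2.83, and *Rrm2*, the regulated subunit of ribonucleotide reductase, with 0.51, from 1.81 to 2.32. *Rrm1*, the partner subunit of the same enzyme, was at 2.79 and 2.50, a difference of -0.29. Both subunits kept these opposite sides of 0 in every alternative other than the spike-in controls.

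Of the mitosis genes, 14 of 17 were higher on the array labelled RFF4 and 3 lower. *Ube2c*, the ubiquitin-conjugating enzyme of the anaphase-promoting complex, had levels of 0.00031 and 1.21, a difference of 1.21 or 2.32-fold, and 0.99 on its other probe. *Cdc20*, an activator of the same complex, had 0.85 and 1.66, a difference of 0.81. The A- and B-type cyclins were higher by similar amounts. *Ccnb1* had -1.72 and -0.70, a difference of 1.02 or 2.03-fold, and its other 2 probes gave 1.19 and 1.28. *Ccna2* had -0.43 and 0.51 (0.94), and *Ccnb2* had 1.45 and 2.33 (0.88). The differences of the 3 cyclins thus lay between 0.88 and 1.02.

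*Ccnb1* was just past 2-fold, and *Ccna2* and *Bub1b* were just short of it, at 1.92-fold each. *Bub1b*, of the spindle checkpoint, had -1.99 and -1.05, a difference of 0.94, while its relative *Bub1* had -2.79 and -2.38, a difference of 0.41. The probe of *Bub1* was spotted 10 times on each array, with spot SDs of 0.11 and 0.12, and its highest spot on the control array (-2.65) was below its lowest on the other (-2.53). *Birc5*, which encodes survivin of the chromosomal passenger complex, was at 2.41 and 3.22, and its 3 probes gave 0.81, 0.83 and 0.98. *Plk1*, a mitotic kinase, had 0.48 and 1.101, a difference of 0.63. *Cdk1*, the kinase of cyclins A and B, had -1.67 and -1.19, a difference of 0.48, on the only 1 of its 3 probes that was well above background.

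Not all mitosis genes followed. *Mki67*, the gene of the Ki-67 antigen that marks cycling cells, had 2.15 and 2.41, a difference of 0.26, and 0.0062 on its other probe. *Top2a*, topoisomerase II of dividing cells, had -0.29 and -0.04 (0.25), and *Foxm1*, a factor that drives mitotic genes, had -1.56 and -1.30 (0.26). *Aurka*, Aurora kinase A, had 0.35 and 0.37, a difference of 0.01. The 3 lower genes were *Cenpa*, a centromeric histone, from 2.46 to 2.11 (-0.35), *Kif11*, a spindle kinesin, from -1.34 to -1.67 (-0.33) and *Cenpe*, a kinesin of the kinetochore, from 0.31 to 0.15 (-0.17), though *Kif11* was at 0.07 with normexp background correction. Other genes of the Kif and Cenp families, from the wider list described below, mostly lay on the other side, with 9 of 12 measured above 0 and a median of 0.49. Of the mitosis genes, 13 were higher and 2 lower here and under every alternative other than the spike-in controls.

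**Figure D2:**
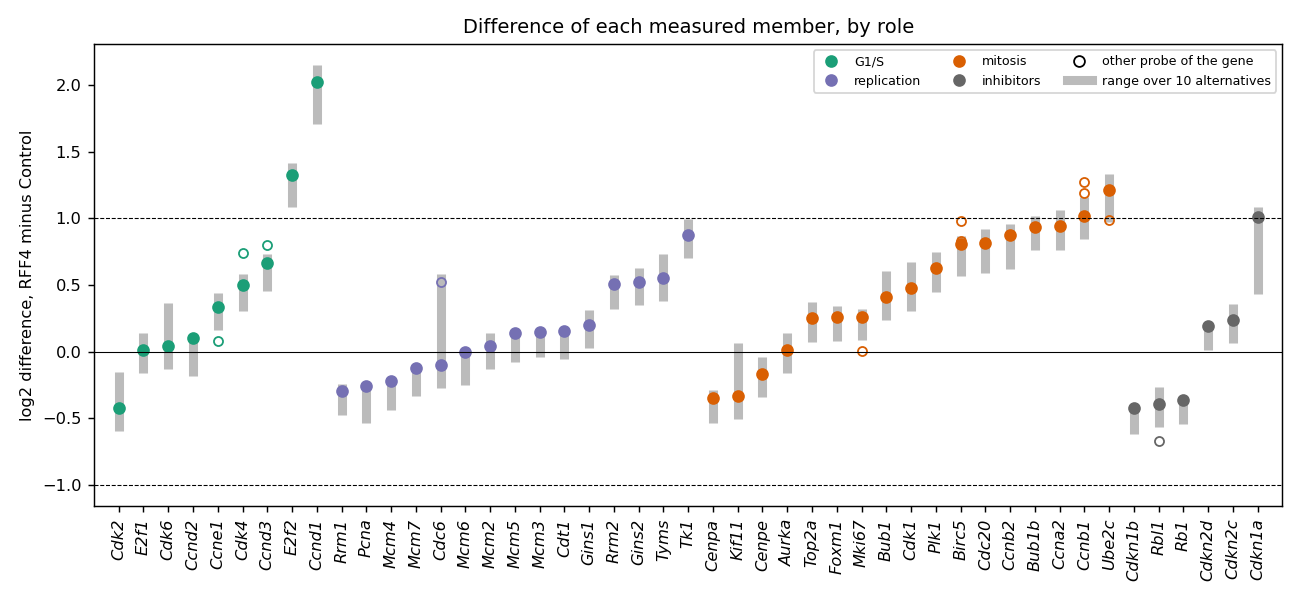
Log2 difference, RFF4 minus Control, of each of the 47 measured genes (y axis), ordered within roles and colored by role. Filled circles are the brightest probe, open circles the other measured probes, gray bars the range over the 10 alternatives other than the spike-in controls, and dashed lines 2-fold. The mitosis genes run from -0.35 to 1.21 and the replication genes from -0.29 to 0.87, and the gray bar of *Cdc6* reaches both sides of 0.

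The inhibitors went different ways. *Cdkn1a*, the p21 gene, had 1.499 and 2.51, a difference of 1.01 or 2.02-fold. This probe was spotted 10 times on each array, with spot SDs of 0.04 on both, and the spots reached 1.54 at the highest on the control array and 2.44 at the lowest on the other. Its other probe was not well above background on either array, and with both probes averaged the difference was 0.43. *Cdkn1b*, the p27 gene, had 4.45 and 4.03 (-0.42). *Rb1*, the retinoblastoma gene, had 3.02 and 2.65 (-0.37), again over 10 spots per array, with the lowest control spot at 2.97 and the highest of the other array at 2.73. Its relative *Rbl1* had 0.81 and 0.42 (-0.39), and -0.67 on its other probe. The INK4 genes *Cdkn2c* and *Cdkn2d*, inhibitors of Cdk4 and Cdk6, were within 0.24 of equal, at -0.35 and -0.11, and at 3.50 and 3.69.

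**Figure D3:**
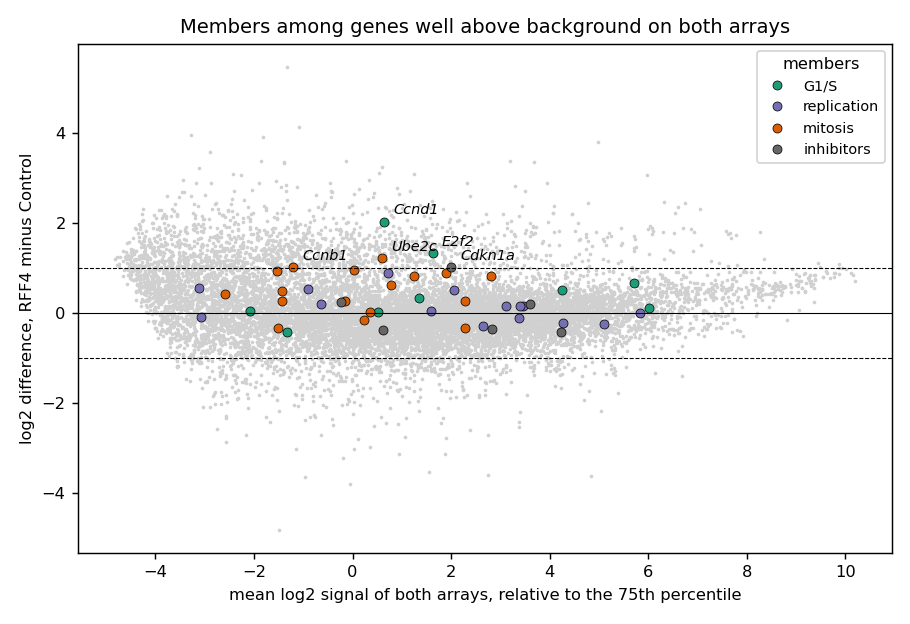
Log2 difference, RFF4 minus Control (y axis), against the mean log2 signal of both arrays relative to the 75th percentile (x axis), for all genes well above background on both (light gray points) and the 47 measured genes, colored by role. The 5 genes named are those past 2-fold (dashed lines), of which *Ccnd1* is the highest, at 2.03.

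The other genes of the cycle were taken from a list of 127, of which 121 were measured, and were compared by the same measure. Over the list the median difference was 0.03, with 5 genes (4.13%) higher and 2 (1.65%) lower past 2-fold, against 12.3% and 5.05% of all genes. The 51 other mitosis genes had a median of 0.27, with 33 above 0, while the 40 other replication genes had a median of -0.13, with only 15 above 0. The medians of the 15 other G1/S genes and the 15 other inhibitors were 0.13 and 0.22. The mitosis genes were thus above those of replication in both lists, without a test. The lowest 2 were *Orc1* and *Orc6*, subunits of the origin recognition complex, at -1.48 (from -2.36 to -3.84) and -1.20 (from 2.56 to 1.35). *Ckap2*, of the spindle, and *Ccng2*, cyclin G2, followed at -0.93 and -0.83. Highest were *Cdkn2b* and *Cdkn2a*, INK4 inhibitors next to each other on their chromosome, at 1.57 (from 0.68 to 2.25) and 1.41 (from -1.83 to -0.43), followed by *Nuf2*, of the kinetochore, at 1.06 and *Kif2c*, a kinesin of the spindle, at 1.04.

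**Figure D4:**
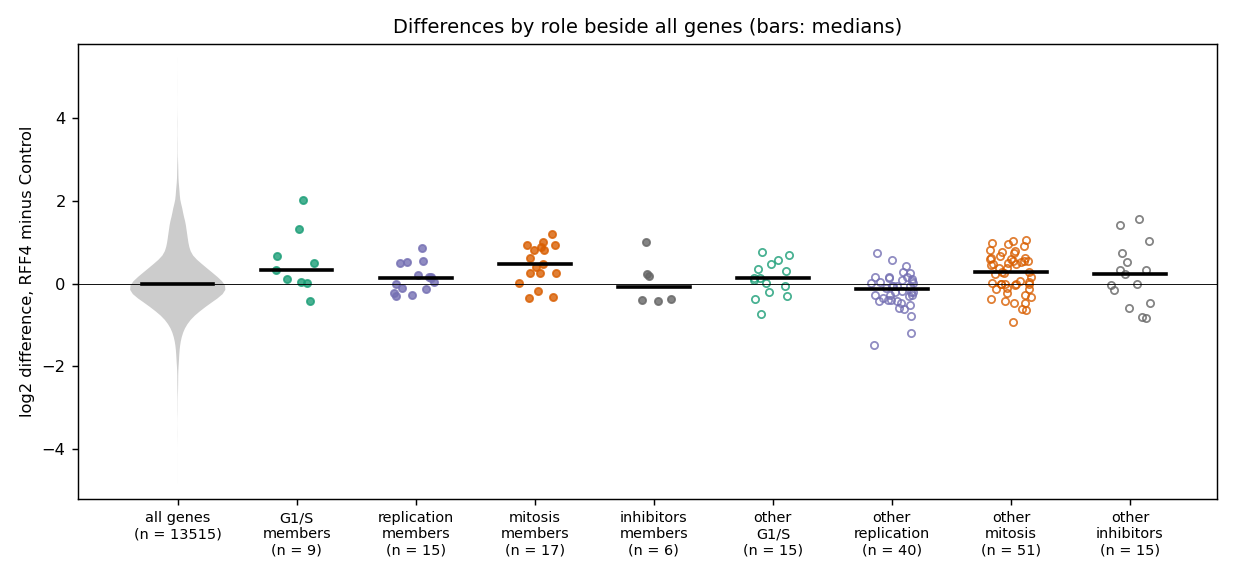
Log2 differences, RFF4 minus Control (y axis), of all 13515 genes (violin), of the measured genes by role (filled circles) and of the other genes of the same roles (open circles), with medians as black bars. The median of mitosis is 0.48 among the 17 genes and 0.27 among the 51 others, and that of replication 0.14 among 15 and -0.13 among 40.

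In RNA of a sorted population, fewer cells of a type and less RNA per cell cannot be told apart. RNA of genes used as markers of other cell types also differed between the arrays. The 10 measured markers of T cells were well above background on both arrays, with a median difference of 0.32 and 7 above 0, and their summed scaled signal was 1256 and 1537. Among them *Cd3e* was at 8.10 and 8.44 and *Cd8a* at 6.24 and 6.18, while *Cd2* was at 2.96 and 5.18 (2.22) and *Ptprc* at 5.64 and 5.18 (-0.46). Of the markers of other T cells, *Cd8b1* was at -3.52 and -4.25, well above background only on the control array. Its difference of -0.72 therefore uses a dim signal on the array labelled RFF4. *Cd4*, whose cells had been depleted, was at 1.67 and 1.80 (0.13) and *Foxp3*, of regulatory T cells, at -5.02 and -3.81 (1.20). Both were well above background on both arrays, but *Foxp3* lay near the lowest levels so called, -5.51 on Control and -4.29 on RFF4. The 15 markers of the epithelium were all well above background on both arrays and all higher on the array labelled RFF4, with a median difference of 1.59 and 13 past 2-fold, and their summed signal was 234 and 715. The 12 markers of macrophages and dendritic cells were also all higher, with a median of 2.33 and 10 past 2-fold, and a summed signal of 76.3 and 170. Most of the control sum came from *Itgax* (level 5.52) and *Itgam* (4.32), whose differences were 0.20 and 0.92, so the sums mainly follow these genes. *C1qa* and *C1qc* were well above background only on the array labelled RFF4, so their differences are lower bounds, and the median rests in part on that of *C1qa* (2.24). The 5 measured markers of B and plasma cells had a median of 1.68, with 3 higher past 2-fold and *Xbp1* (-0.30) and *Cd79b* (-0.26) lower, and a summed signal of 88.6 and 109. The markers of crypt stem and transit-amplifying cells, the dividing part of the epithelium, had a median of 0.61 over the 9 measured, from -0.87 for *Axin2* to 1.02 for *Lrig1*, with sums of 10.04 and 10.5 over 10, and *Lgr5* was well above background on neither array. The part of these cells in the differences of *Ccnd1*, *E2f2*, *Cdkn1a* and the mitosis genes was not tested.

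The order of the roles, mitosis, G1/S, replication and inhibitors, was the same in the reported processing and its 11 alternatives. Only quantile normalization, cyclic loess, normexp correction, the mean of probes and the setting without a filter could have changed this order. The others shift all members by the same constant or leave them as they are. Relative to the all-gene median, the mitosis median was between 0.30 and 0.63 higher over the reported processing and all alternatives. The replication median was at 0.16 relative to all genes here, and below them with normexp correction and without a filter on dim probes.

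**Figure D5:**
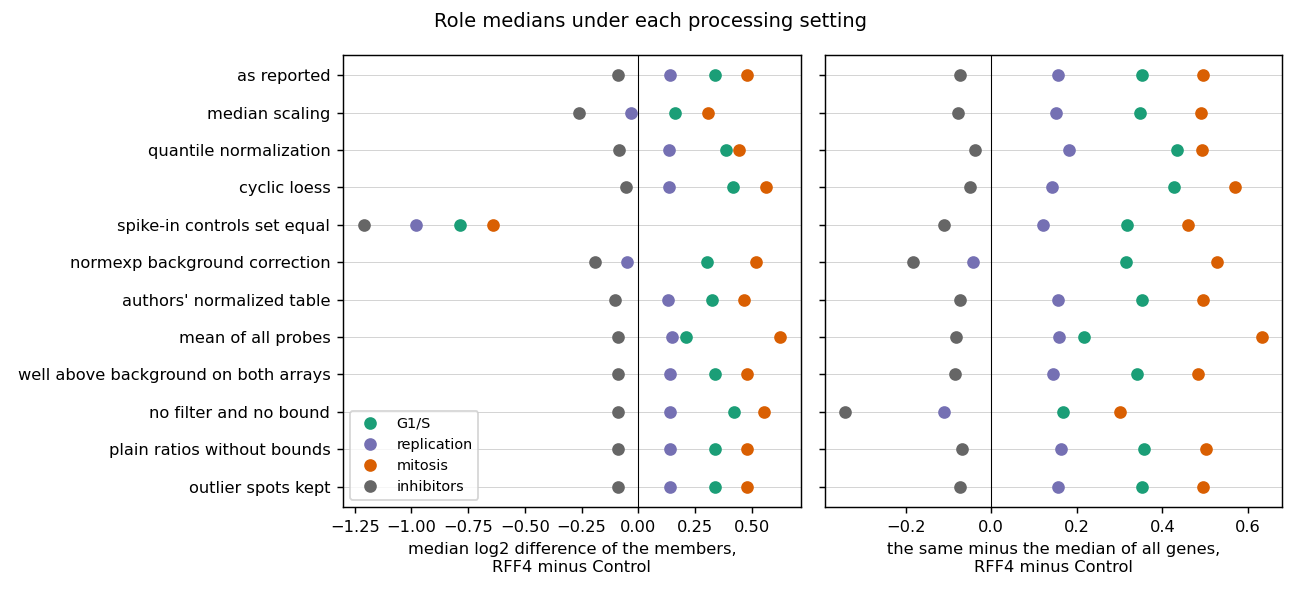
Median log2 difference, RFF4 minus Control, of the measured genes of each role (colors) under the reported processing and the 11 alternatives, as such (left) and relative to the median of all genes (right). On the left all roles lie below 0 only with the spike-in controls set equal, while on the right mitosis is the highest in each row.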

How the data were processed

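RNA of sorted TCRαβ+CD8αα+ IELs, 150 ng per array, was labelled with Cy3 and hybridized to 1 array per genotype, both on the same slide and scan. Per the file headers and the submitters' processing notes, the authors made the deposited intensity values with Agilent Feature Extraction 10.7.1.1, which subtracts background from each spot without normalization between arrays. The authors also deposited a table of log2 values centered per probe, used here only as an alternative.

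Levels are log2 intensities minus the 75th percentile of the array's gene spots (8.99 for Control and 7.82 for RFF4), without control spots or outliers, and averaged over the spots of a probe. A probe counted as well above background when 50% or more of its spots did, and genes so on at least 1 array were compared. Of 1269 genes so on 1 array alone, 558 were given a bound. For it the dim array was set to the higher of its own signal and its lowest level well above background. The other 711, whose bound was under 1-fold, were given no difference. The brightest probe represented each gene. Of 55679 probes, 27509 were named through RefSeq accessions. The members, lists and rules were chosen with earlier results of these data known. All 49 members may be named, with the 4 highest and 4 lowest of the wider list, *Rbpj* and the marker genes. Marker sums add 2 to the power of the level over the genes on the array. The result of 1 gene of the marker lists is not reported here. The number of arrays limits the precision.

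The 11 alternatives were median scaling, quantile normalization, cyclic loess, spike-in controls set equal, normexp background correction (offset 50), outlier spots kept, the mean of a gene's probes, the authors' table, a filter to genes well above background on both arrays, neither filter nor bound, and plain ratios in place of bounds. Python 3.11.15 with numpy 2.4.6 and pandas 2.3.3, R 4.3.3 with limma 3.58.1, and matplotlib 3.10.9 were used. The calculation was checked on simulated arrays with known differences.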

Additional observations from a re-analysis of the deposited data

How the results depend on the processing

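With 1 array per genotype no replicate could be left out. No paired analysis was possible because each genotype has 1 array. Median scaling gave 3 genes higher past 2-fold in place of 5, against 9.68% of all genes. Its role medians were 0.16 for G1/S, -0.033 for replication, 0.31 for mitosis and -0.26 for the inhibitors. With spike-in controls set equal, 0 genes were higher and 18 lower past 2-fold, against 1.39% and 56.7% of all genes. The medians were -0.78, -0.98, -0.64 and -1.21 in the same order. Of the 34 genes above 0, 31 were below 0, among them *Ccnb1* (-0.10) and *Cdkn1a* (-0.11), which had been past 2-fold. These shifts follow from the constant each scaling subtracts. Normexp correction gave 2 genes higher past 2-fold, against 9.22% of all genes, and a replication median of -0.051. The mean of all probes gave medians of 0.21 for G1/S and 0.63 for mitosis. The cause of the last 2 groups of changes was not tested. The count higher past 2-fold was 4 with quantile normalization and 7 with cyclic loess, against 11.3% and 12.2% of all genes. It was 7 of 49 with no filter and no bound (30.0% of all genes) and 4 with the mean of all probes (12.3%). The authors' normalized table, genes well above background on both arrays, plain ratios and outlier spots kept moved no member by more than the technical SD. In all, 26 genes were higher and 11 lower here and under all alternatives but the spike-in controls, and 10 changed side. Dim probes were limited most, since the technical SD was 0.19 below level 0 and 0.07 above.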
